A study of Schizosaccharomyces pombe with 24 samples.

Results

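The cytoplasmic ribosomal protein genes of the fission yeast Schizosaccharomyces pombe were described from the gene annotation deposited with a ChIP-seq series on H3K9 methylation. Genes were taken where the annotation gave them an mRNA and a name made of rpl, rps or rpp followed by a digit. The name rule matched 141 of 5113 protein-coding genes. The product text named a ribosomal protein for 138 of them, and these 138 genes, set beside the other 4972 protein-coding genes, are the subject of every value below unless another set is named. The names rpl and rps stand for proteins of the large (60S) and the small (40S) subunit. The names rpp0, rpp1 and rpp2 followed by a copy number stand for the acidic proteins of the ribosomal stalk. Of the 138 genes, 76 encoded large subunit proteins, 55 small subunit proteins and 7 stalk proteins.

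Ribosomal proteins are needed in matched amounts for each ribosome, and growing yeast cells spend much of their transcription and translation on them. In fission yeast their promoters are known for a conserved element, the HomolD box, which takes the place of a TATA box, and for a second element, the HomolE box, upstream of it. Many of the proteins are encoded by more than 1 gene, and such copies are called paralogs here.

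The series held 24 libraries against H3K9me2 or H3K9me3, the histone marks of heterochromatin, from strains with a reporter of 10 tet operators beside ade6+. In 14 libraries the reporter stood at an ectopic site (ura4D::10xteto-ade6+) in the genotypes clr4D, swi6D, swi6D mst2D, swi6D set1D, swi6D mst2D set1D, mst2D set1D and WT. In the other 10 it stood at the endogenous mating-type site (cenHD::10xteto-ade6+) in swi6D, swi6D mst2D, swi6D set1D, swi6D mst2D set1D and WT. Each genotype had 1 library per antibody, and all carried the reporter. The 2 deposited files used here are annotations, called the endogenous-site and the ectopic-site annotation after the reporter each one holds. They carry no read count or signal, so read depth is unknown, no library value could be given for any gene, and every number below describes the genome annotation and has no replicate error.

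Of the 3 matched genes without a ribosomal product, rpp1 encodes the p30 subunit of RNase P and RNase MRP, rpp21 a subunit of RNase MRP and rpp40 a subunit of RNase P, enzymes that process tRNA and rRNA precursors. The gene rpp1 lay on the minus strand of chromosome I and its coding sequence of 744 bases had 4 gaps, of which the last was 1 base long. The gene rpp40 had 4 introns in a coding sequence of 1008 bases. The gene rpp21 had no coding intron, no annotated 5′ untranslated end and a 3′ untranslated end of 560 bases. None of the 3 had a HomolD or HomolE box, and each had at least 1 antisense RNA gene. In the other direction, 5 genes had the product text of a cytoplasmic ribosomal protein under another name: ubi1 and ubi2, which encode ubiquitin fused to L40, ubi3 and ubi5, which encode ubiquitin fused to S31, and cpc2, which encodes the 40S protein RACK1.

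Most of the proteins were encoded more than once. The 138 genes carried 76 protein numbers and stood for 77 proteins, because rpl8 shares only its number with rpl801, rpl802 and rpl803, and its protein was at most 16.5% identical to theirs. A single gene encoded 21 proteins, 2 genes encoded 51 and 3 genes encoded 5, so that 56 of 77 proteins (72.7%) had more than 1 gene. The copies of 40 of these 56 proteins lay on more than 1 chromosome. The closest copies on 1 chromosome were rpl1201 and rpl1202, which encode the uL11 protein at the base of the stalk. Their left ends were 64027 bases apart on chromosome III.

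The genes were spread over the genome much as other genes were. Chromosomes I, II and III held 60, 51 and 27 of them (43.5%, 37.0% and 19.6%), against 45.7%, 36.4% and 17.8% of the other protein-coding genes. The plus strand held 70 genes and the minus strand 68. Adjacent protein-coding genes were both ribosomal in 8 pairs. Of these, 4 were divergent, with promoters facing each other (rps1602 and rpl13, rpl701 and rps1402, rpl35 and rpl902, rps2 and rps20), 3 were in tandem (rps403 and rpl2102, rps29 and rps27, rps1402 and rps1601) and 1 was convergent (rps001 and rpl2701). Among all 5110 adjacent pairs, 27.3% were divergent. The space between the starts was 67 bases for rpl701 and rps1402, 102 bases for rps1602 and rpl13, 203 bases for rpl35 and rpl902 and 490 bases for rps2 and rps20. Their median was 152.5 bases, against 712 bases for all 1396 divergent pairs. One more divergent pair, rps1502 and rpp203, had 110 bases between its starts, but was not adjacent, because SPAC1071.09c overlaps rpp203 on the minus strand and its left end lies between the starts.

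The HomolD box was common before these genes and rare elsewhere. It was searched as CAGTCACA, and the HomolE box as the 10 letters in capitals at the left of the first window below, both on both strands, in the 300 bases from 250 before to 50 after the annotated gene start. The start and the sequence were read from the ASM294v3 assembly, which held an entry for 141 of the 141 matched genes. The 2 sets of letters do not overlap each other as motifs. HomolD occurred in 88 of 138 promoters (63.8%), against 49 of 4969 other promoters (0.986%). HomolE occurred in 41 (29.7%), against 23 (0.463%). At least 1 of the boxes occurred in 106 (76.8%), against 1.33% of other promoters. The shares by subunit were 61.8% for HomolD and 38.2% for HomolE in small subunit genes, and 65.8% for HomolD in large subunit genes, where 19 of 76 had HomolE. In the 7 stalk genes there were 4 promoters with HomolD and 1 with HomolE. A match is a run of letters in this window and was not tested for binding.

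Both boxes occurred in 23 promoters, and HomolE lay upstream of HomolD in 23 of the 23, with 0 to 20 bases between them (median 10). In 10 promoters both boxes read forward, with 8 to 15 bases between, and in 8 both read backward, with 0 to 14 bases between. HomolE read backward and HomolD forward in 4, with 6 to 8 bases between, and the reverse held in 1. The following windows of 30 bases, from ASM294v3 (RefSeq), show 3 of these arrangements with their spacing. They are written 5′ to 3′ along the gene's own strand, and capitals mark the boxes.
rpl1101 (I:3346924-3346953, minus strand): aACCCTACCCTatacatgaaaCAGTCACAa
rpl1701 (II:1734058-1734087, minus strand): ACCCTACCCTaagtgtccaaacCAGTCACA
rps102 (I:898998-899027, minus strand): tACCCTACCCTcaaaaaaggaCAGTCACAa
rpl803 (II:601181-601210, plus strand): ACCCTACCCTggtcgttaaagCAGTCACAt
rps901 (I:476163-476192, minus strand): ACCCTACCCTatattggaagaCAGTCACAa
rps2 (III:2096075-2096104, minus strand): ACCCTACCCTaatgagcccaaaCAGTCACA
rpl301 (I:1756016-1756045, plus strand): gaACCCTACCCTaaaaagaaCAGTCACAat
rpl1201 (III:691691-691720, minus strand): atctttAGGGTAGGGTTGTGACTGttgttt
rps23 (I:2135849-2135878, minus strand): taagaAGGGTAGGGTtTGTGACTGttttgg
rpl502 (II:3365693-3365722, minus strand): tAGGGTAGGGTtataagtattTGTGACTGt
rpl3001 (I:1974121-1974150, minus strand): tttAGGGTAGGGTttgaagCAGTCACAttt
rpl8 (II:2045412-2045441, plus strand): ctAGGGTAGGGTttgctaaaCAGTCACAca

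The first 7 of these windows carry both boxes forward, the next 3 carry both backward, where HomolD reads TGTGACTG and HomolE is likewise reversed and complemented, and the last 2 carry HomolE backward and HomolD forward. In rpl1201 the boxes have 0 bases between them, and in rps23 they have 1.

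Most boxes lay in narrow ranges upstream of the annotated start. The 92 HomolD matches had a median position of -51, where the first base of the gene is 0 and the position is that of the leftmost base of the match along the gene's strand. Of them, 78 began between -60 and -43 and 62 read forward. The 41 HomolE matches had a median of -70 and 40 began between -86 and -60, the exception being rps402 at -91. Both ranges were chosen after the positions in these genes were seen, so the shares of other genes in them are given as a description only. HomolD matches outside their main range included rpl902 at -148, rpl2802 and rpp203 at -74 and rpl701 at -16 and 10. The genes rpl902 and rpl2802 have no annotated 5′ untranslated end, so their positions are counted from the start codon. The same holds for rps21 and rps2501. Allowing 1 mismatch, a HomolD-like run began between -60 and -43 in 120 ribosomal protein promoters (87.0%), against 111 other promoters (2.23%). A HomolE-like run began between -86 and -60 in 59 (42.8%), against 15 (0.302%).

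**Figure D1:**
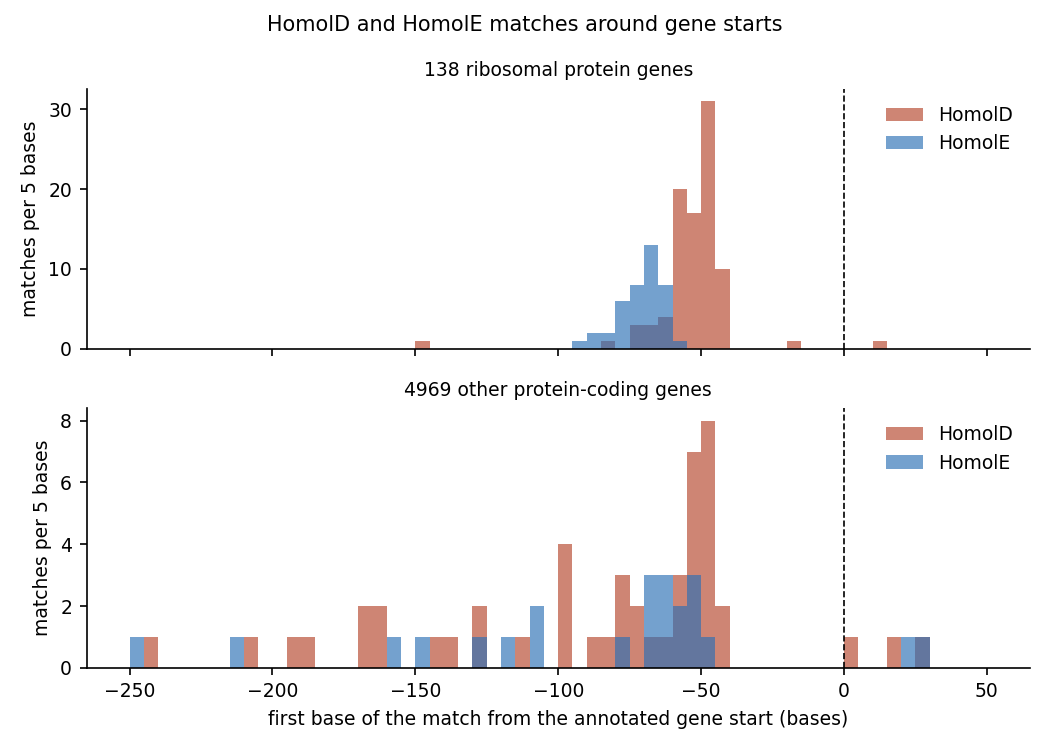
Number of exact HomolD (red) and HomolE (blue) matches per 5 bases, by the distance of the first base of the match from the annotated gene start (dashed line), for 138 ribosomal protein genes (top) and 4969 other protein-coding genes (bottom). HomolD gathers around -51 and HomolE around -70 in the ribosomal protein genes, and the vertical scales of the panels differ.

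Divergent pairs shared boxes. The 88 genomic HomolD matches in ribosomal protein promoters included 4 that fell in the windows of 2 such genes: 2 between rpl701 and rps1402, 1 between rpl35 and rpl902 and 1 between rps1502 and rpp203. In each pair the match lay in the main range for no more than 1 of the genes, for example at -44 from rps1502, the gene for a small subunit head protein, and at -74 from rpp203, a stalk gene. Of the 49 other promoters with HomolD, 14 contained the bases of a ribosomal protein promoter's match, and of the 23 with HomolE, 10 did.

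Copies of 1 protein often differed in the exact letters of their boxes, and less so with 1 mismatch allowed. Of the 51 proteins with 2 genes, 18 had the exact HomolD letters at both genes, 30 at 1 gene and 3 at neither. With up to 1 mismatch these counts were 48, 3 and 0, and with up to 1 mismatch between -60 and -43 they were 39, 11 and 1. In the same order, the shares over all 138 genes were 63.8%, 96.4% and 87.0%. Whether copies differ more than these shares alone would give was not tested. The gene rpl1202 had HomolD at -65 and at -46, while rpl1201 had HomolE at -68 and HomolD at -58. Among the proteins with 3 genes, rps401 and rps403 (small subunit protein eS4) each had HomolD at -47, while rps402 had HomolE at -91 and a run with 1 mismatch to HomolD at -49. For the large subunit protein uL2, rpl801 had HomolD at -58, rpl803 had HomolE at -71 and HomolD at -50, and rpl802 had neither, also with 1 mismatch in the main ranges. For uL13, rpl1602 had HomolD at -49. The exact letters were missing at rpl1601 and rpl1603, but rpl1601 had runs with 1 mismatch to HomolD at -44 and to HomolE at -68, where the deposited annotation marks promoter elements of 7 bases at -43 and of 10 bases at -68, and rpl1603 had one to HomolD at -56. In the stalk, rpp102 and rpp103 had HomolD at -53 and -60 and rpp101 had a run with 1 mismatch to HomolE at -75. The gene rpp201 had HomolD at -54 and rpp202 had HomolE at -63. In rpp203 the exact HomolD match at -74 is the one shared with rps1502, and a run with 1 mismatch to HomolD lay at -45.

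The deposited annotation marked promoter elements almost only at these genes. Of its 62 promoter features, 57 lay at ribosomal protein genes, at 37 different genes, and 47 of the 62 were on chromosome I, 14 on II and 1 on III. In ASM294v3, 24 of the 57 read HomolD and 16 HomolE. Of the other 17, 11 were 8 or 10 bases long and differed from the box of that length by 1 base. The 31 features of 8 bases began between -59 and -43 and the 21 of 10 bases between -78 and -49. Most of the 57 features carry the letters searched here, or differ by 1 base. They are therefore no independent check of the search, and how they were chosen is not known here.

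Other growth genes were compared by fixed lists. HomolD occurred at 4 of 7 translation elongation factor genes: tef101, tef102 and tef103, the genes of EF-1 alpha, at -44, -56 and -59, and tef3, the gene of elongation factor 3, at -139. HomolE occurred at eft202, a gene of elongation factor 2. Of the 4 ubiquitin fusion genes, ubi5 had HomolD at -46 and ubi2 had it at -88 in bases that also lie in a ribosomal protein promoter window. The genes ubi1 and ubi3 had none. The RACK1 gene cpc2, which is not a ubiquitin fusion gene, had HomolD at -50. HomolD was found in 0 of 36 promoters of mitochondrial ribosomal protein genes with names in mrpl or mrps, and HomolE in 0. It was found in 0 of 8 genes of regulators of ribosome production and translation (fhl1, sfp1, rrn7, tor2, psk1, sck1, sck2, gcn2), of which rrn7 encodes the protein known to bind HomolD.

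The 5′ untranslated ends were short, and their length depended on the annotation. In the endogenous-site annotation the median was 19.5 bases over the 134 genes that had one (quartiles 13 and 29), against 102 bases over 4378 other genes (quartiles 44 and 215) and 101.5 bases over mitochondrial ribosomal protein genes. The longest were rpl3402 with 239 bases, rpl701 with 80 and rpl3002 with 69. The shortest were rpl702 with 4 bases and rpl39 and rps1002 with 5 each. No 5′ end was annotated for rpl2802, rpl902, rps21 and rps2501. In the ectopic-site annotation the medians were 68.5 bases, against 179 bases for other genes. The 5′ end was shorter in the endogenous-site annotation at 122 of 130 genes present in both (93.8%), against 81.6% of other genes, and the median difference, endogenous minus ectopic, was -44 bases, against -42.

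The same choice of start moved the boxes. This was measured over 82 HomolD matches at genes with a 5′ untranslated end in both annotations. The matches of rpl39 and rps2202, which have an intron outside the coding sequence, are left out. The interquartile range of the position was 9.75 bases from the endogenous-site starts and 29.25 bases from the ectopic-site starts. The SDs were 10.8 and 53.8 bases. The matches came from the window searched above, and no window around the ectopic-site starts was searched, so the spreads are not like for like. The median was -8 from the ectopic-site starts, and 31 of the 82 matches (37.8%) lay inside the 5′ untranslated end drawn there. The most upstream ectopic-site starts were those of rpp0, whose 5′ end was 24 bases long in the endogenous-site annotation and 1115 in the other, and of rps101, with 13 and 884 bases.

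The 3′ untranslated ends were also short but nearly the same in both annotations. Their median was 119 bases over 138 genes (quartiles 78.3 and 165), against 269 bases over 4585 other genes (quartiles 154 and 472) and 267 bases over mitochondrial ribosomal protein genes. They were equal in both annotations for 137 of 138 genes, against 99.7% of other genes. The longest was that of rpl1603, with 2033 bases, followed by rps601 with 530 and rpl1702 with 342. The shortest were those of rps1602 with 29 bases, rps23 with 32 and rpl502 with 36.

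Coding sequences, counted with the stop codon, had a median of 447 bases (quartiles 354 and 601), against 1164 bases for other genes (quartiles 707 and 1779) and 505.5 bases for mitochondrial ribosomal protein genes. The shortest were rpl4101 and rpl4102 with 78 bases each, for the peptide eL41, and rpl39 with 156, for a protein of the exit tunnel. The longest were rpl301 and rpl302 with 1167 bases each, for uL3 near the peptidyl transferase centre, and rpl401 and rpl402 with 1092 each, for uL4, which lines the exit tunnel.

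**Figure D2:**
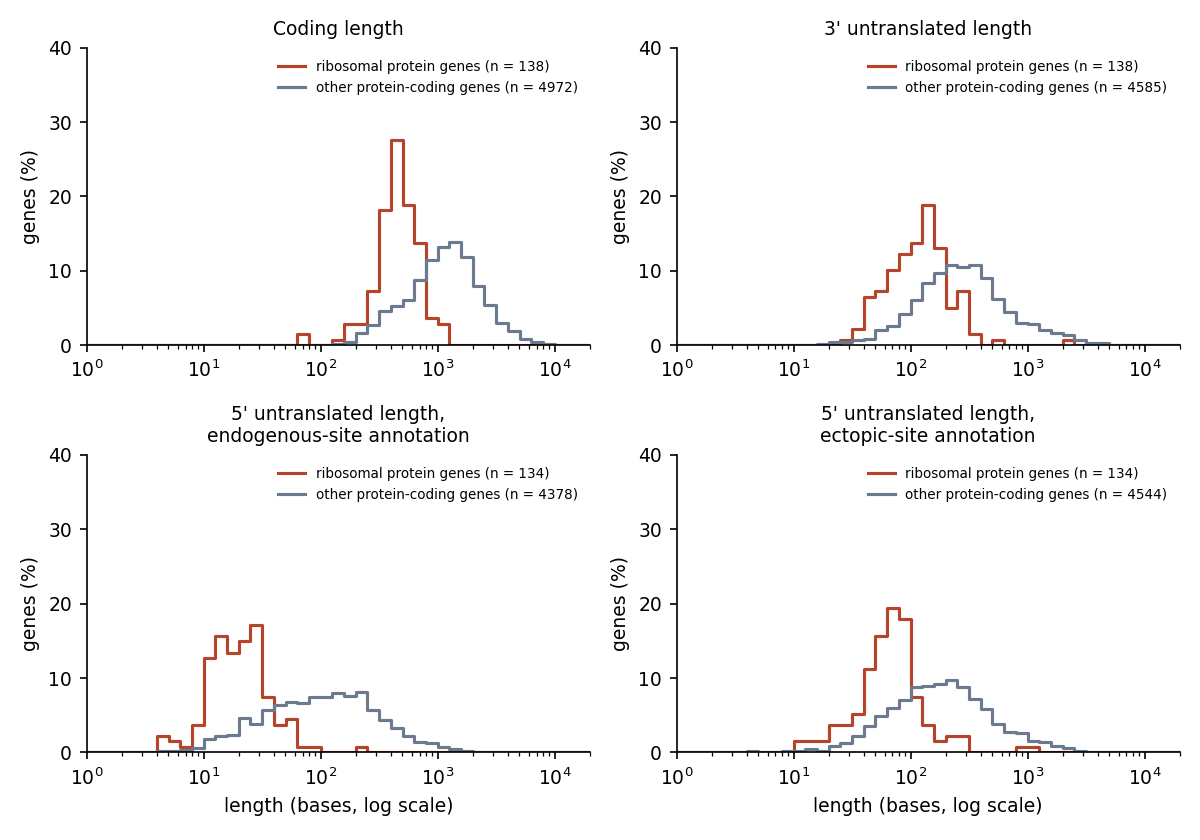
Share of genes by length (log scale) for ribosomal protein genes (red) and other protein-coding genes (grey): coding length, 3′ untranslated length, and 5′ untranslated length in each deposited annotation. The 5′ ends of ribosomal protein genes have a median of 19.5 bases in the endogenous-site and 68.5 bases in the ectopic-site annotation, and in both lie below those of other genes.

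About as many ribosomal protein genes as other genes had introns, but more of those with introns had a single one, and the introns were longer. An intron interrupted the coding sequence of 73 of 138 genes (52.9%), against 46.4% of other genes and 36.1% of mitochondrial ribosomal protein genes. All 7 stalk genes had one, as did 30 of 55 small subunit and 36 of 76 large subunit genes. Of the 73 genes, 63 (86.3%) had exactly 1 intron, against 43.3% of other intron-containing genes. The largest number was 3, in rps13, and 9 genes had 2. The 84 introns had a median length of 84.5 bases (quartiles 55 and 164), against 55 bases for 4959 introns of other genes (quartiles 46 and 84). Of the 84, 37 (44.0%) were over 100 bases long, against 19.6%. The 4959 include 19 coding gaps of under 10 bases, which also enter the intron shares of other genes, and the 84 include 0. By the longest intron of each gene, rpl701 had 441 bases, rpp0 324 and rpl702 291, while rpl2701 had 44, rps901 45 and rpl1601 46, the value shared with rpp202. The genes rpl701 and rpl702 encode uL30, and rpp0 encodes the stalk base protein.

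The position of the first intron differed by subunit. It followed a median of 68 coding bases in small subunit genes, 117 in large subunit genes and 309 in stalk genes. Each copy was counted, though copies mostly share the position. The stalk value is the one shared by rpp201, rpp202 and rpp203, while rpp101, rpp102 and rpp103 had 69. The median over all 73 genes was 76 (quartiles 36 and 202), against 109 for other genes (quartiles 48 and 216) and 74 for mitochondrial ribosomal protein genes. In these short genes it was 20.9% of the coding sequence, against 10.8%. The latest first introns followed 786 bases in rpp0, 390 in rps1202 and 388 in rpl102. In 9 genes (12.3% of those with introns) the intron followed the start codon directly, after 3 coding bases, against 33 other genes (1.43%). They included both copies of rpl18, rpl38 and rps25 and the single gene rpl8. The next windows, of 30 bases each from ASM294v3 (RefSeq), show this junction at these 7 genes, with the start codon in capitals and the intron following it.
rpl1801 (II:3361814-3361843, plus strand): aaaATGgtatgtataatatgaatacctgtt
rpl1802 (I:1285624-1285653, plus strand): aagATGgtaagtaaatgtcgtaactggttg
rpl3801 (II:754649-754678, plus strand): aaaATGgtaagtgagataagtagaggtttc
rpl3802 (I:1097224-1097253, minus strand): aaaATGgtatgtgcatgcttttaaattgtt
rpl8 (II:2045492-2045521, plus strand): aaaATGgtaagtgacaatcgattgaaatag
rps2501 (II:1274247-1274276, plus strand): aaaATGgtaagtgtggattataccatttgc
rps2502 (I:4208821-4208850, minus strand): aaaATGgtaagaattttaaaatgattaaag

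Copies of 1 protein share the position of this intron, and the letters after its first few bases differ between them. Over all 84 introns, 44 (52.4%) began with GTAAGT, against 27.2% of introns of other genes, and 24 (28.6%) began with GTATGT, against 19.8%. The last 3 bases were TAG in 76 (90.5%), against 68.2%. Introns lying between codons made up 57.1%, against 41.3%. Introns outside the coding sequence were found in rps2202, with 147 bases in the 5′ untranslated end, and in rpl39, with 62 bases in the 3′ untranslated end.

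Paralogous proteins were close in sequence. Over the 66 pairs of copies, the median identity was 96.9%, and 16 pairs encoded the same protein, while the median identity of the coding bases was 87.4%. The identical pairs differed in their coding bases (median identity 91.3%, range 82.7% to 99.6%). They include the 3 pairs of rpl801, rpl802 and rpl803. The least similar pairs were rpp202 and rpp203 with 77.9%, rpl3001 and rpl3002 with 78.6%, and rpp201 and rpp202 with 78.8%. Those of rpl16 were 84.8% to 96.4% identical, those of rpp1 84.5% to 92.8%, and those of rps4 98.9% to 99.6%.

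Intron positions were mostly shared between copies, while intron lengths differed. An intron was present in 37 of the 66 pairs, and 29 of the 37 shared all of them. Shared positions were counted once for each pair of copies, so those of the 3-gene proteins rpl16, rpp1 and rpp2 entered more than once. Over the 34 shared positions counted so, 2 introns were of equal length in both copies, those of rpl41 (52 bases) and the first of rps25 (50 bases). The longer was a median of 1.40 times as long as the shorter and at most 4.56 times, with 219 bases in rps1001 and 48 in rps1002. Identity was counted over all alignment columns, gaps included, so that it falls where lengths differ. At the 13 shared positions with a length ratio up to 1.2, a limit chosen after the lengths were seen, the intron columns were 52.1% to 63.2% identical (median 55.2%) and the coding columns of the same pairs 72.4% to 90.6% (median 83.9%). Introns of unrelated genes were not aligned, so how much of this intron identity any 2 introns would reach is not known. The introns of the 3-gene proteins lay after 41 coding bases in rpl1601, rpl1602 and rpl1603 (46, 55 and 58 bases long), after 69 in rpp101, rpp102 and rpp103 (136, 139 and 155 bases long) and after 309 in rpp201, rpp202 and rpp203 (63, 46 and 94 bases long). The genes rps401 to rps403 and rpl801 to rpl803 had none.

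**Figure D3:**
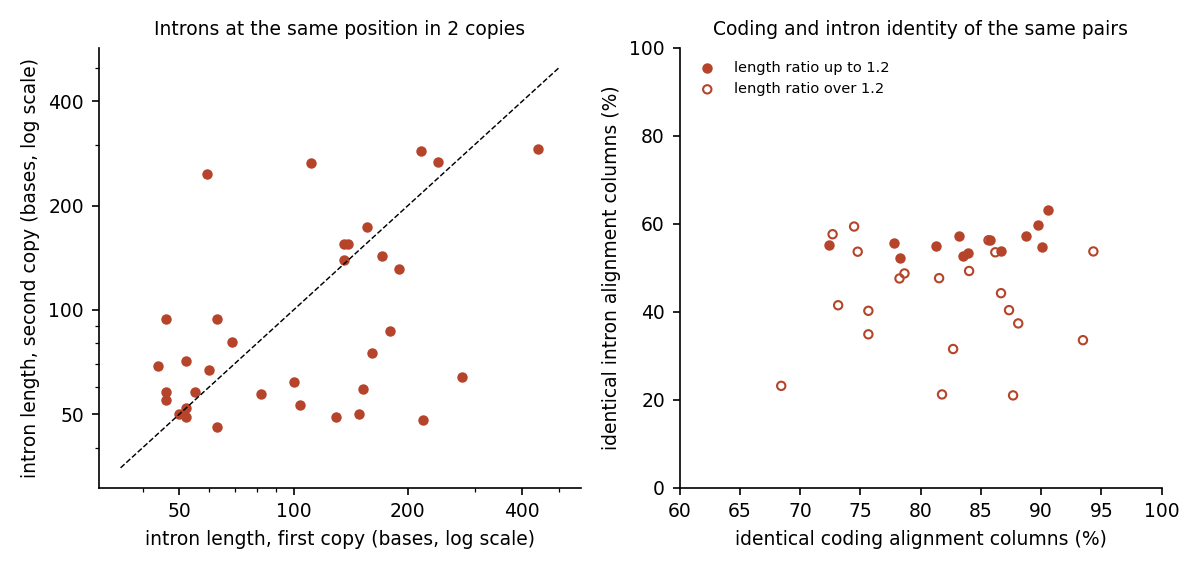
Introns at the same position in 2 copies of a ribosomal protein gene, 34 in all, counted once for each pair of copies. Left, the length in one copy against the other (log scales, dashed line of equal length), and right, the share of identical alignment columns (gaps counted as different) in the intron against that in the coding sequence of the same pair. Filled points have a length ratio up to 1.2, and their intron values run from 52.1% to 63.2%. Open points have a larger ratio, which lowers their intron value. Introns of unrelated genes were not aligned for comparison.

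An intron was present in only 1 copy in 8 pairs: rpl101 and rpl102, rpl1201 and rpl1202, rpp101 and rpp102, rpp102 and rpp103, rps001 and rps002, rps2601 and rps2602, rps3001 and rps3002, and rps901 and rps902. The most alike of them was rpl1201 and rpl1202. The 2 genes encode the same protein and differ at 2 of 498 coding bases, but rpl1202 had an intron of 95 bases after 12 coding bases and rpl1201 had none. Their 3′ untranslated ends were 46 bases in rpl1201 and 150 in rpl1202. In rps3002 and rpp102 the intron absent from the other copy was the second one, after 168 and 309 coding bases, with lengths of 123 and 117 bases. The position of the second intron of rpp102, after 309 bases, is the same count of coding bases as that of the single intron in the rpp2 genes. In rps901 the intron followed 15 coding bases, in rps001 39, in rps2602 124 and in rpl102 388.

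**Figure D4:**
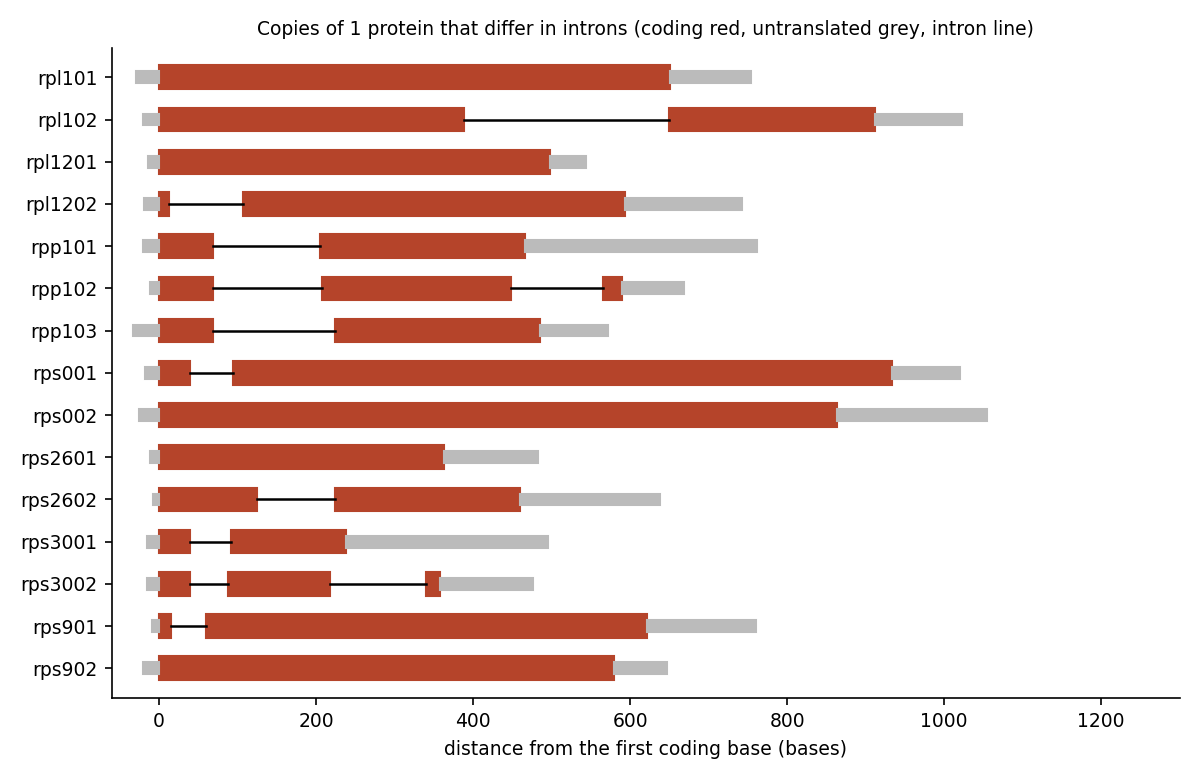
Gene models of the 15 genes in the 8 pairs of copies that differ in introns, drawn to scale from the first coding base (coding sequence red, untranslated ends grey, introns as lines). The copies rpl1201 and rpl1202 encode the same protein, and rpl1202 alone has an intron, of 95 bases after 12 coding bases.

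Antisense RNA genes were fewer at ribosomal protein genes than at other genes, and the shares lay closer together among genes of like length. In the endogenous-site annotation, with 7195 non-coding RNA genes, 76 of 138 (55.1%) overlapped a non-coding RNA gene of the opposite strand by at least 1 base, against 76.0% of other genes and 66.7% of mitochondrial ribosomal protein genes. Among genes under 750 bases the shares were 52.5% of 80 and 53.4% of 388. They were 58.5% of 41 and 63.7% of 336 from 750 to under 1000 bases, and 62.5% of 16 and 72.6% of 1131 from 1000 to under 1500 bases. The ectopic-site annotation held 1566 non-coding RNA genes, and there 15 of 138 ribosomal protein genes (10.9%) overlapped one, against 21.4% of other genes.

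**Figure D5:**
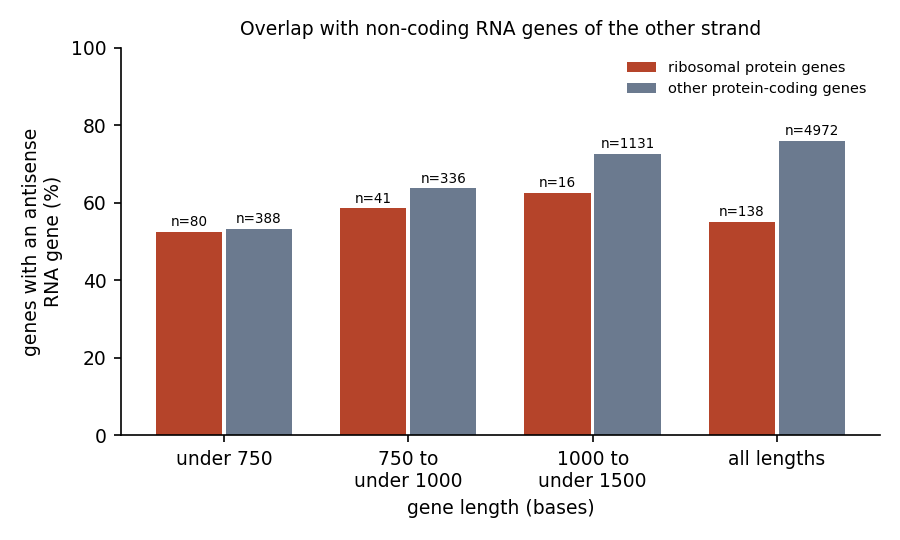
Share of ribosomal protein genes (red) and other protein-coding genes (grey) that overlap a non-coding RNA gene of the opposite strand in the endogenous-site annotation, by gene length, with the number of genes above each bar. Over all lengths the shares are 55.1% and 76.0%, and under 750 bases 52.5% and 53.4%.

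Antisense genes covered 31.6% of the bases of ribosomal protein genes, against 42.6% in other genes. From end to end, 17 ribosomal protein genes (12.3%) were covered, against 6.94% of other genes, which are longer. Among genes under 750 bases these shares were 12.5% of 80 and 21.1% of 388, from 750 to under 1000 bases 17.1% of 41 and 12.2% of 336, and from 1000 to under 1500 bases 0 of 16 and 8.66% of 1131. The longest overlaps were 977 bases at rps001, 935 at rpl803 and 865 at rpl902. The overlaps with SPNCRNA.4793 at rpl803 and SPNCRNA.1103 at rpl902 ran over the whole gene, and SPNCRNA.5814 covered 94.1% of rps001. The shortest were 1 base at rpl22, 14 at rpl1102 and 76 at rpl1201. Of the 51 proteins with 2 genes, 12 had an antisense gene at both, 31 at 1 and 8 at neither. The share over all 138 genes was 55.1%, and whether copies differ more than this share alone would give was not tested.

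The coding sequences had their own composition. Lysine and arginine, the basic residues that contact rRNA, made up 19.0% of codons for amino acids, against 11.2% in other genes, and aspartate and glutamate 9.38%, against 11.9%. Mitochondrial ribosomal protein genes had 16.9% and 8.58%. The acidic stalk proteins went the other way, with 6.91% lysine and arginine and 18.7% aspartate and glutamate. Small subunit genes had 18.6% and 10.2%, and large subunit genes 20.2% and 8.10%. GC content was 48.0%, against 39.6%. Of lysine codons, 83.1% were AAG, against 36.7%. Of arginine codons, 69.8% were CGT, against 30.1%, and of glycine codons, 65.9% were GGT, against 41.5%.

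The ribosomal protein genes nearest to the heterochromatin reporters are given here, and other genes around the reporters were not counted. In the endogenous-site annotation rpp202, a stalk gene, lay 6600 bases to the left of the reporter on chromosome II, at 2127990 to 2128467 on the minus strand. On the other side rpl401 lay 12710 bases away, at 2149659 to 2150930 on the plus strand. In the ectopic-site annotation 0 ribosomal protein genes lay within 20 kb of the reporter on chromosome III. The nearest on each side were rpl2402, 20810 bases to the right, and rpl902, 24680 bases to the left. The genes nearest to a centromere were rps402, 6077 bases from that of chromosome II, and rpl1002, 8780 bases from that of chromosome I.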

How the data were processed

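Per the labels' protocols, ChIP-seq libraries were made from yeast grown to log phase. Trimmomatic and BWA, with no version, appear in the submitters' processing notes. For the alignment build, nothing is given in the sources used here. The authors deposited 2 annotations, whose start and end columns are base positions counted from 1 (unit: other), with no count or signal per library. The source column of the first names PomBase, and the second was written by Geneious 7.1.5, per the file headers. Which strain belongs to which file is not stated in the labels.

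Coding sequences, introns and untranslated ends were taken from the first transcript of each gene. A member with under 50% protein identity to the others of its number was split off. Sequences were read from ASM294v3 by gene identifier, and no coordinate was converted. Other genes numbered 4969 in the promoter search because 3 had no full window. Proteins, introns and coding bases were aligned globally with Biopython 1.88 (BLOSUM62 for proteins). The scripts ran in Python 3.11.15 with scipy 1.17.1 and numpy 2.4.6, and figures were drawn with matplotlib 3.10.9. On simulated data, gene structures, planted motifs and planted protein differences were recovered in 200 of 200 cases each.

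Members and lists were chosen with earlier results of these data known. Genes named were the members of proteins with 3 genes, the 3 highest and lowest of each measure, pairs that differ in introns, the extremes of identity, neighbours of each other and of the reporters, and the comparison lists. Others, such as those shown for their box spacing, were chosen after their values were seen. No test was made, because all genes of the annotation were counted and no library has a value. A few members and windows are not reported here. The alternatives tried are in the closing section.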

Additional observations from a re-analysis of the deposited data

How the results depend on the processing

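Of 39 alternative settings for 14 results, 27 left the value equal, or inside the 95% exact binomial interval of a share, or within 1.5 times of a count. The other 12 moved it. The annotation moved it most: the ectopic-site annotation gave a median 5′ untranslated length of 68.5 bases, against 19.5, and an antisense share of 10.9%, against 55.1%. With 1 mismatch allowed, HomolD occurred in 96.4% of promoters, against 695 of 4969 other promoters, and HomolE in 43.5%, against 1.53%. The 30 proteins with HomolD at 1 of their 2 genes became 3 with 1 mismatch allowed, and 11 with 1 mismatch allowed between -60 and -43. In genes with exactly 1 intron the median number of coding bases before it was 98, and with 1 value per protein the median coding length was 439.5 bases. Counting absent 5′ ends as 0 gave 19 bases. With all 141 matched genes the 5′ and 3′ medians were 20 and 119.5 bases. Proteins with 2 genes alone had a median paralog identity of 97.0%. Settings that used all matched genes, the ectopic-site 5′ and 3′ ends, grouping by number alone, only 2-gene proteins or mismatches in 2-gene proteins were chosen after seeing the data.

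No paired analysis was possible because the files hold no value per library. Depth limits cannot be given for the same reason. Annotated starts and non-coding RNA genes depend on the annotation used, and absence from it does not show that a transcript is absent from the cells.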

Other observations

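Among genes not matched by the name rule, HomolD began between -60 and -43 in 20 promoters (0.402% of 4969). They include those of ubi5 and cpc2, which encode ribosomal proteins under another name. Several belong to genes of protein synthesis and folding: tif1, the gene of initiation factor eIF4A, at -54, tma19, which encodes a translationally controlled tumour protein, at -51, btf3, a subunit of the nascent polypeptide-associated complex, at -53, sks2, a ribosome-associated chaperone, at -49, and rlp7, a ribosome biogenesis protein, at -47. Others belong to metabolism: sam1, an S-adenosylmethionine synthetase, at -52, tpi1, triosephosphate isomerase, at -58, and ilv5, of branched-chain amino acid synthesis, at -52. These genes were chosen after their values were seen.

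HomolE began between -86 and -60 in 8 other promoters. Among them were crf1, which encodes a corepressor of the TOR signalling pathway, at -67 and tif512, which encodes eIF5A, at -77. At mpp10, a U3 snoRNP-associated protein, the match at -69 is made of the same bases as the box of a ribosomal protein promoter. A gene of the mitochondrial ribosome whose name lies outside the mrpl and mrps list, mrp51, had it at -62.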
